A study of Homo sapiens with 16 samples.

Results

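The enzymes of sterol and fatty acid synthesis were described in RNA-seq of 293T cells, 32 genes of the 58884 in the gene table. They were selected by enzyme function, as steps of the textbook pathways, with the values of all 6 libraries already known. Their levels, fold changes and calls therefore describe these genes and were not used as support for a statement about the list. The sterol branch held 21 genes, from the condensation of acetyl-CoA to cholesterol, with the sterol transfer protein STARD4. The fatty acid branch held 11 genes, from the supply of acetyl-CoA and NADPH to desaturated and elongated chains. All 32 passed the filter on low values.

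Both pathways start from cytosolic acetyl-CoA. The mevalonate route builds isoprenoid units, joins them into farnesyl diphosphate and squalene, closes squalene to lanosterol and trims lanosterol to cholesterol. Fatty acid synthesis extends malonyl units to palmitate, which elongases and desaturases then modify. The SREBP transcription factors are known to drive genes of both routes when membrane sterol is low.

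293T is a human embryonic kidney line, here of wild type genotype, maintained as adherent cells. Cells were transfected for 72 h with scramble siRNA, SETD2 siRNA, which targets the enzyme that trimethylates histone H3 at K36, or siRNA to the splicing regulator hnRNP L, with 2 libraries per siRNA. RNA was ribodepleted and enriched for polyA before library preparation, and the deposited values are TPM (transcripts per 1000000, a level corrected for transcript length). The study's Reporting Summary describes its replicates as independent biological ones. The p-values here measure only the spread between the 2 libraries of a group, pooled over the 3 siRNAs and drawn towards a trend over all tested genes. The standard error of a gene is therefore the same in every comparison. Each siRNA stands for 1 reagent, and its sequence is not given in the sources used here.

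The HNRNPL transcript stood at 341 and 457 TPM in scramble libraries, against 25.04 and 28.8 TPM after its depletion. The SETD2 transcript stood at 13.4 and 11.7 TPM in scramble libraries, against 4.24 and 4.91 TPM after its depletion. Each target was thus below both scramble libraries. Of the markers of the line, all 4 (PAX2, LHX1, NEFL and VIM) were detected, at 718 to 894 TPM in sum with scramble, 934 to 982 TPM with SETD2 and 943 to 1075 TPM with hnRNP L siRNA. Most of each sum came from VIM. PAX2 was at 1.65 to 2.79 TPM and LHX1 at 1.07 to 1.69 TPM over all libraries, both low. NEFL alone was called, at a log2 fold change of 0.82 after hnRNP L depletion. Hepatocyte markers summed to at most 0.40 TPM and blood markers to at most 0.05 TPM in any library. Markers of fibroblasts and endothelium summed to 3.89 to 5.19 TPM with scramble, 2.84 to 5.29 TPM with SETD2 and 3.70 to 4.77 TPM with hnRNP L siRNA, nearly all from COL1A1, with VWF listed at 0 throughout.

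With scramble siRNA the mean level of the members ran from 10.3 TPM for AACS to 307 TPM for SCD. The sterol branch had a median of 58.4 TPM and the fatty acid branch a median of 27.8 TPM. SCD, the delta-9 desaturase, was followed by SQLE, squalene epoxidase, at 236 ± 16.5 TPM (SD, n = 2) and by FDPS, farnesyl diphosphate synthase, at 228 ± 17.7 TPM (SD, n = 2), and these 2 did not differ beyond their spread. EBP, a sterol isomerase, stood next at 177 ± 16.3 TPM (SD, n = 2). The sterol branch as a whole summed to 1565 and 1587 TPM with scramble, 1498 and 1546 TPM with SETD2, and 908 and 943 TPM with hnRNP L siRNA. The fatty acid branch summed to 855 and 757 TPM, 699 and 785 TPM, and 585 and 638 TPM in the same order. Both sums were below every other library with hnRNP L siRNA, and the SETD2 siRNA sums overlapped the scramble sums in the fatty acid branch only.

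**Figure D1:**
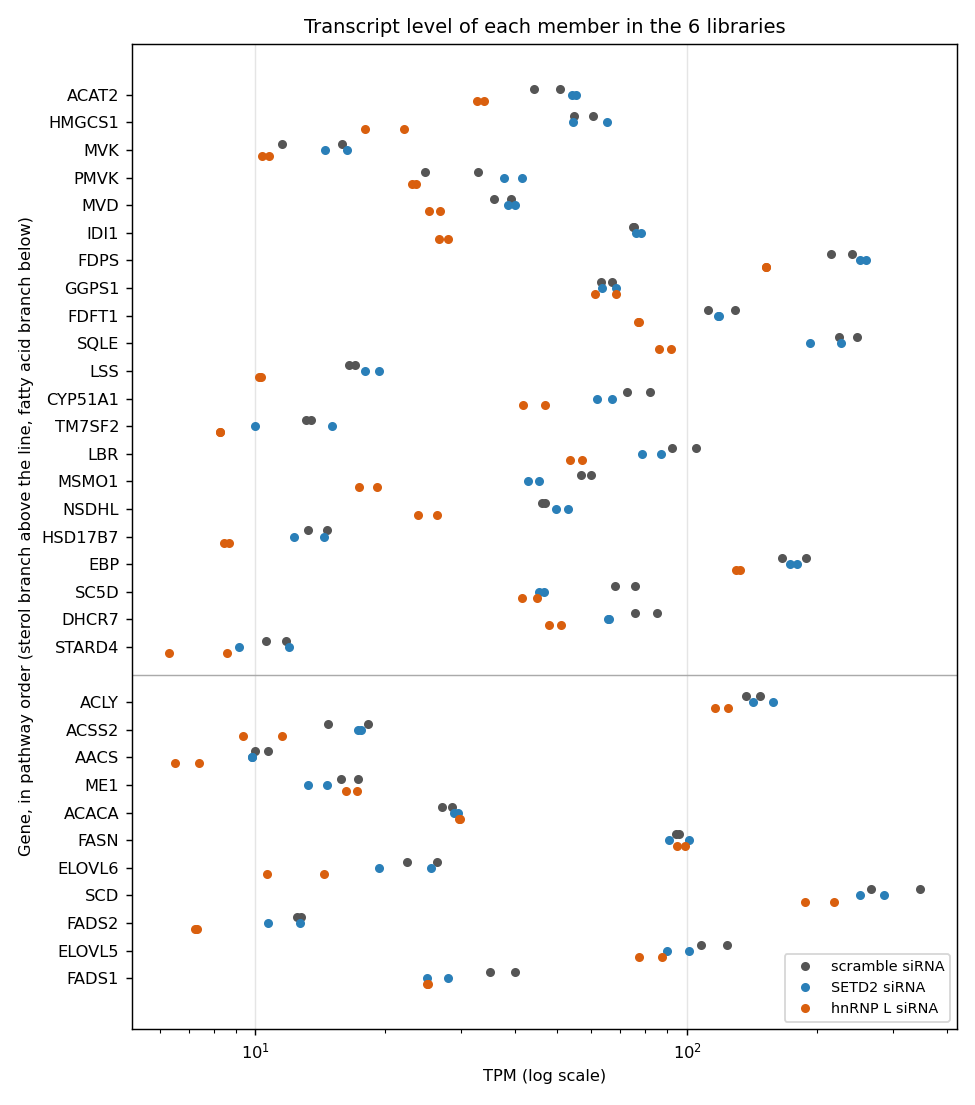
TPM of each member on a log axis, with 1 point per library and the siRNA given by colour, in pathway order. The hnRNP L siRNA points lie to the left of both scramble points for 28 of 32 genes, while GGPS1, ME1, ACACA and FASN do not follow.

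The first comparison asked how the pathway stood after hnRNP L depletion. In 17 of 32 members the transcript was lower than with scramble siRNA and passed the calling rule, a limma adjusted p under 0.05 over 16300 tested genes and a fold change above 1.5. That rule was met in the lower direction by 5.01% of all tested genes. No member was called higher, 0 of 32 in limma with 0 at an unadjusted p under 0.05 in that direction, where 1.75% of all tested genes were called higher. By adjusted p alone 24 of 32 members were lower, against 8.48% of tested genes. Both hnRNP L siRNA libraries were below both scramble libraries in 28 members, an order that 37.8% of tested genes showed. Because the members were listed with these values known, these shares describe the list and nothing is read from them. Fold changes are given as log2 differences of TPM + 0.5, a scale that understates changes at low TPM, with the standard error of the fit. In bulk RNA a lower level in fewer cells and less RNA per cell cannot be told apart.

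In the sterol branch 13 of 21 members were called lower, where 5.01% of all tested genes were. The median log2 fold change was -0.67, or 62.8% of the scramble level, against -0.08 for all tested genes. The deepest members were at scattered steps. MSMO1 (ENSG00000052802, chromosome 4 from 165327667 to 165343164 of hg38), the oxidase that removes the C4 methyl groups of lanosterol derivatives, had 59.9 and 56.9 TPM with scramble, 42.7 and 45.5 TPM with SETD2, and 19.1 and 17.4 TPM with hnRNP L siRNA. The 3 groups did not overlap, and hnRNP L siRNA was the lowest, with a log2 fold change of -1.65 ± 0.10 (SE).

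In the steps from acetyl-CoA to squalene, with GGPS1 on its side arm, 3 of 9 members were called lower, against 5.01% of all tested genes. The median log2 fold change of these steps was -0.51. HMGCS1 (ENSG00000112972, chromosome 5 from 43287470 to 43313512), which forms HMG-CoA at the entry of the pathway, had 60.6 and 54.8 TPM with scramble, 54.5 and 65.2 TPM with SETD2, and 17.99 and 22.1 TPM with hnRNP L siRNA. Scramble and SETD2 siRNA overlapped, and hnRNP L siRNA lay well below both at a log2 fold change of -1.51 ± 0.14 (SE). IDI1 (ENSG00000067064, chromosome 10 from 1039152 to 1049119), the isomerase of isopentenyl diphosphate, had 75.4 and 75.2 TPM with scramble, 76.4 and 78.4 TPM with SETD2, and 26.6 and 27.9 TPM with hnRNP L siRNA. It had the smallest standard error of any member, with a log2 fold change of -1.45 ± 0.09 (SE). FDFT1, squalene synthase, had 112 and 129 TPM with scramble, 118 in both SETD2, and 77.1 and 77.5 TPM in the hnRNP L siRNA libraries, a log2 fold change of -0.63 ± 0.10 (SE).

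The other members up to squalene were not called. FDPS, which makes farnesyl diphosphate, had 216 and 241 TPM with scramble, 259 and 252 TPM with SETD2, and 152 TPM in both hnRNP L siRNA libraries. Its log2 fold change of -0.58 ± 0.10 (SE) passed the adjusted p and was just short of the fold cut-off. ACAT2, the cytosolic thiolase, at -0.51, and MVD, the mevalonate diphosphate decarboxylase, at -0.51 log2, likewise passed by adjusted p alone. The kinases of the route differed less, with MVK at -0.34 ± 0.16 (SE) and PMVK at -0.28 ± 0.14 (SE), and neither passed. PMVK had 24.8 and 32.8 TPM with scramble siRNA and 23.1 and 23.6 TPM with hnRNP L siRNA, so that the scramble libraries themselves stood further apart than the group means. GGPS1, which draws farnesyl diphosphate off into protein prenylation, had 63.3 and 66.9 TPM with scramble, 63.5 and 68.4 TPM with SETD2, and 61.2 and 68.6 TPM with hnRNP L siRNA. All 3 groups overlapped in GGPS1, and its interval from -0.24 to 0.23 (95%, log2) does not reach the values of FDPS and FDFT1.

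From squalene to cholesterol 10 of 11 members were called lower, against 5.01% of all tested genes, with a median log2 fold change of -0.73. SQLE, the epoxidase that opens this stretch, had 248 and 225 TPM with scramble, 192 and 228 TPM with SETD2, and 85.9 and 91.7 TPM with hnRNP L siRNA. Its log2 fold change was -1.40 ± 0.11 (SE), and only the scramble and SETD2 groups overlapped. LSS, lanosterol synthase, at -0.68 ± 0.11 (SE), and CYP51A1, the lanosterol 14-demethylase, at -0.80 ± 0.11 (SE), followed. The pair of C14 reductases, LBR, which is also a receptor of the nuclear lamina, and TM7SF2, had log2 fold changes of -0.83 ± 0.11 and -0.65 ± 0.17 (SE). TM7SF2 shares its strand and part of its span with VPS51, so reads of the pair could have been split between them.

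NSDHL, the decarboxylating dehydrogenase at C4, had 46.2 and 46.8 TPM with scramble, 52.9 and 49.6 TPM with SETD2, and 23.8 and 26.4 TPM with hnRNP L siRNA. The hnRNP L group was the lowest and the SETD2 group the highest, and the log2 fold change against scramble was -0.88 ± 0.10 (SE). HSD17B7, the 3-keto reductase, had -0.67 ± 0.13 (SE), SC5D, the C5 desaturase, -0.73 ± 0.10 (SE), and DHCR7, the C7 reductase, -0.70 ± 0.10 (SE), each a log2 fold change. EBP was the one member of the stretch that was not called. It had 166 and 189 TPM with scramble siRNA and 133 and 130.1 TPM with hnRNP L siRNA, a log2 fold change of -0.43 ± 0.10 (SE) that passed the adjusted p alone. STARD4, which carries sterol through the cytosol and makes none, had 10.6 and 11.8 TPM with scramble and 6.32 and 8.58 TPM with hnRNP L siRNA. The groups did not overlap, but the log2 fold change of -0.57 ± 0.18 (SE) did not pass.

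**Figure D2:**
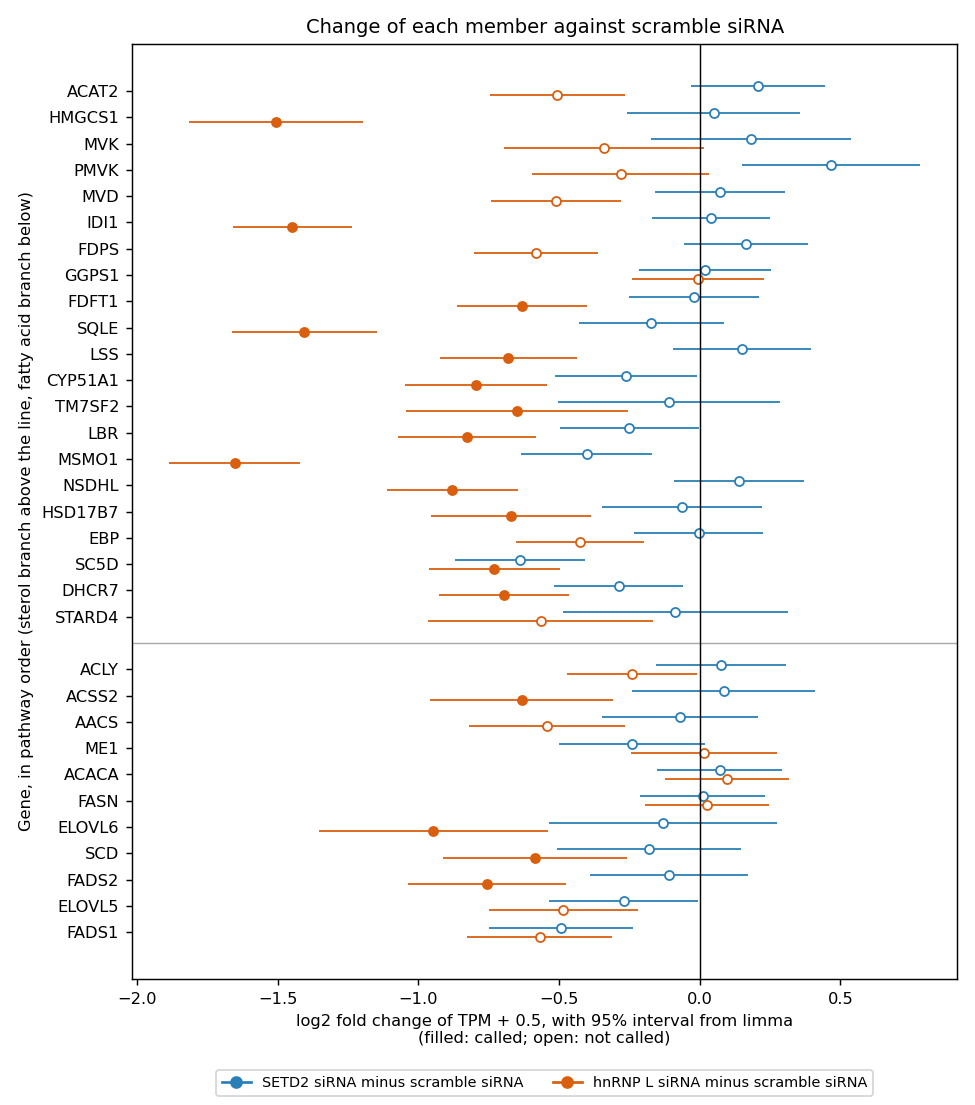
log2 fold change of TPM + 0.5 against scramble siRNA, with the 95% interval of the limma fit, for SETD2 siRNA and hnRNP L siRNA (filled points called, open points not called). MSMO1, HMGCS1, IDI1 and SQLE lie furthest left after hnRNP L depletion, and no SETD2 siRNA point is filled.

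In the fatty acid branch 4 of 11 members were called lower, where 5.01% of all tested genes were. The median log2 fold change was -0.54, or 68.6% of the scramble level, against -0.08 for all tested genes. The called members were in acetate supply and in the modification of chains, and neither enzyme of the central steps was called. ACACA, the acetyl-CoA carboxylase that commits carbon to fatty acids, had 28.5 and 27.0 TPM with scramble, 28.8 and 29.5 TPM with SETD2, and 29.6 and 29.9 TPM with hnRNP L siRNA. FASN, fatty acid synthase, had 96.04 and 94.2 TPM, 90.8 and 101 TPM, and 99.0 and 94.8 TPM in the same order. ACACA was slightly above scramble in all 4 other libraries and FASN overlapped in every group, with log2 fold changes of 0.10 ± 0.10 and 0.03 ± 0.10 (SE) after hnRNP L depletion. Their 95% intervals, -0.12 to 0.32 and -0.20 to 0.25, do not reach the median of the branch.

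Of the 4 supply enzymes 1 was called, ACSS2, which makes acetyl-CoA from acetate. It had 18.2 and 14.7 TPM with scramble, 17.5 and 17.3 TPM with SETD2, and 9.37 and 11.5 TPM with hnRNP L siRNA, a log2 fold change of -0.63 ± 0.14 (SE). AACS, which activates acetoacetate, passed by adjusted p alone at -0.54 log2. ACLY, the ATP citrate lyase that supplies most cytosolic acetyl-CoA, had -0.24 ± 0.10 (SE), and ME1, a source of NADPH, had 0.02 ± 0.11 (SE). Neither passed, and the ME1 groups overlapped.

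All 5 desaturases and elongases had both hnRNP L siRNA libraries below both scramble libraries, an order that 37.8% of all tested genes showed. Of the 5, 3 were called lower, where 5.01% of all tested genes were. ELOVL6, which extends palmitate, had 26.4 and 22.5 TPM with scramble, 19.4 and 25.5 TPM with SETD2, and 10.6 and 14.4 TPM with hnRNP L siRNA, the largest difference of the branch at -0.95 ± 0.18 (SE) log2. FADS2, the delta-6 desaturase, had 12.8 and 12.5 TPM with scramble, 10.7 and 12.7 TPM with SETD2, and 7.24 and 7.31 TPM with hnRNP L siRNA, or -0.76 ± 0.12 (SE) log2. SCD had 346 and 267 TPM with scramble, 252 and 287 TPM with SETD2, and 188 and 219 TPM with hnRNP L siRNA. Its scramble libraries stood further apart than the lower of them stood from the hnRNP L group, and its log2 fold change of -0.59 ± 0.14 (SE) was just past the fold cut-off. FADS1, the delta-5 desaturase, at -0.57 ± 0.11 (SE), and ELOVL5, an elongase of polyunsaturated chains, at -0.49 ± 0.12 (SE) log2, passed by adjusted p alone. FADS1 and FADS2 overlap on opposite strands, and counting by strand is not stated in the sources used here. Reads of the shared stretch could therefore have gone to either. FADS2 also shares its strand and part of its span with FEN1, so reads could have been split between those as well.

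The median of the sterol branch was thus 0.13 lower on the log2 scale than that of the fatty acid branch after hnRNP L depletion, with no test of this difference. In single hnRNP L siRNA libraries, measured from the scramble mean, the branch medians were -0.69 and -0.65 for sterol and -0.57 and -0.46 for fatty acid genes. The sterol median was the lower in both libraries. Leaving out 1 library at a time moved the difference between -0.26 and -0.047. Without hnRNP L siRNA replicate 1 the number of members called lower was 5 instead of 17, and without hnRNP L siRNA replicate 2 it was 9. HMGCS1, IDI1, SQLE, MSMO1 and NSDHL kept their call whichever of the 4 libraries of the comparison was left out and under all 11 other settings that used the same fold cut-off. FDFT1, LSS, TM7SF2, HSD17B7, ACSS2, ELOVL6, SCD and FADS2 kept it in at most 1 of the 4 omissions.

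**Figure D3:**
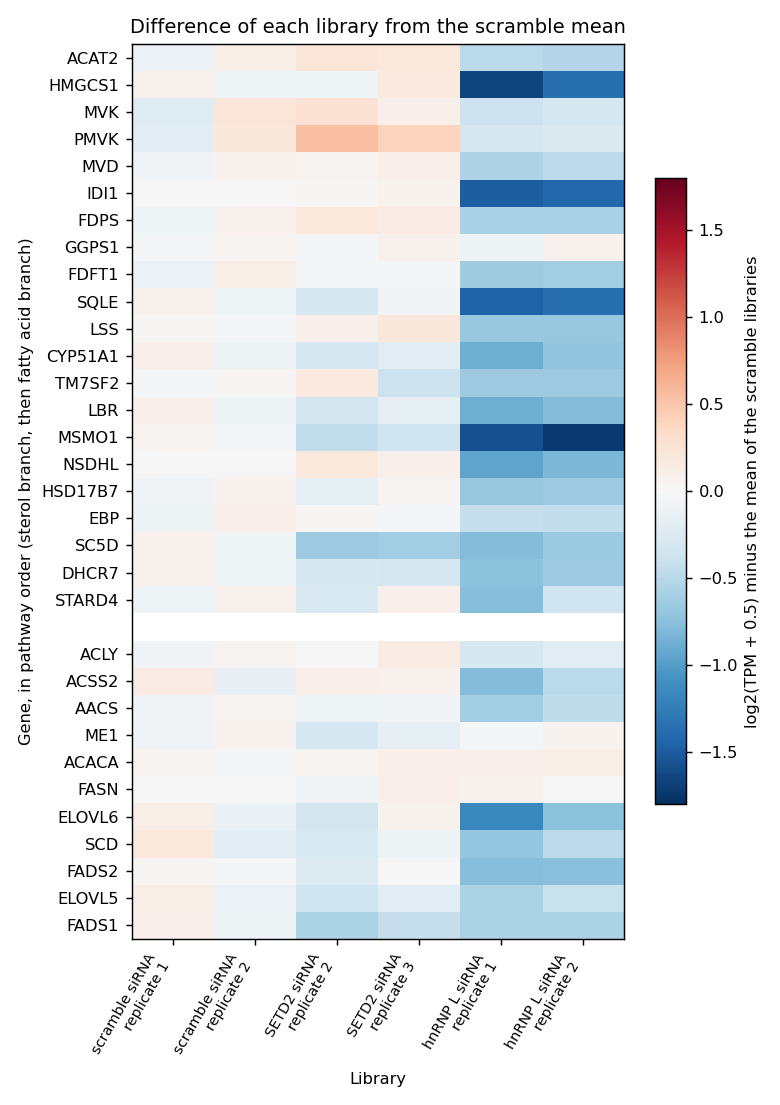
Difference of each library from the mean of the scramble libraries, in log2(TPM + 0.5), for each member in pathway order. Both hnRNP L siRNA columns are blue from ACAT2 to STARD4 except at GGPS1, and pale at ME1, ACACA and FASN. In the SETD2 siRNA columns SC5D and FADS1 are among the darkest blue and PMVK the darkest red.

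The second comparison asked the same of SETD2 depletion. No member was called in either direction, 0 of 32 in limma, where 17 of the 16300 tested genes (0.104%) were called. The paper, with edgeR on protein-coding and lncRNA genes, reports more genes as changed after SETD2 depletion at the same cut-offs. How many true changes the limma fit misses in this comparison was not tested. The lack of calls is therefore not read as a lack of change. At an unadjusted p under 0.05 there were 8 of 32 members, 1 higher and 7 lower, and 13.1% of all tested genes met that level in either direction. The groups did not overlap in 16 members, 9 lower and 7 higher with SETD2 siRNA, an order that 43.5% of tested genes showed. The median log2 fold change was -0.0045 for the sterol branch and -0.11 for the fatty acid branch, against 0.01 for all tested genes. The sterol branch was not uniform. From acetyl-CoA to squalene the median was 0.07 and no member had a 95% interval below 0. From squalene to cholesterol the median was -0.17, and 5 of 11 members, CYP51A1, LBR, MSMO1, SC5D and DHCR7, had an interval below 0. Such an interval was found in 1037 of the 16300 tested genes. This split at squalene was made after the values were seen.

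SC5D stood out among them. It had 75.8 and 68.3 TPM with scramble, 45.5 and 46.6 TPM with SETD2, and 41.5 and 44.9 TPM with hnRNP L siRNA. Both depletions were below scramble by more than the libraries of a group differed, with a log2 fold change of -0.64 ± 0.10 (SE, adjusted p = 0.0788 from limma) for SETD2 siRNA, which did not pass. When only protein-coding and lncRNA genes were tested, SC5D passed the rule as the 1 called member. MSMO1 had a log2 fold change of -0.40 ± 0.10 (SE, adjusted p = 0.201 from limma), and FADS1 of -0.49 ± 0.11 (SE, adjusted p = 0.184 from limma). FADS1 had 40.0 and 34.9 TPM with scramble, 24.95 and 28.0 TPM with SETD2, and 24.9 and 25.1 TPM with hnRNP L siRNA, so that the depletions overlapped each other and lay below scramble. PMVK went the other way, with 24.8 and 32.8 TPM in the scramble and 41.6 and 37.7 TPM in the SETD2 siRNA libraries, a log2 fold change of 0.47 ± 0.14 (SE, adjusted p = 0.24 from limma). HMGCS1 and IDI1, among the deepest members after hnRNP L depletion, had log2 fold changes of 0.05 ± 0.14 and 0.04 ± 0.09 (SE) here.

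Since both depletions were set against the same scramble libraries, they were also compared directly. With hnRNP L siRNA 14 of 32 members were called lower than with SETD2 siRNA, 11 in the sterol and 3 in the fatty acid branch, where 4.69% of all tested genes were called lower. None was called higher, 0 of 32 in limma with 0 at an unadjusted p under 0.05 in that direction, where 2.15% of tested genes were called higher. The median log2 difference was -0.61 in the sterol branch and -0.32 in the fatty acid branch, against -0.10 for all tested genes. HMGCS1 at -1.56 ± 0.14, IDI1 at -1.49 ± 0.09, MSMO1 at -1.25 ± 0.10, SQLE at -1.23 ± 0.11 and NSDHL at -1.02 ± 0.10 (SE, log2) were the largest. ACAT2 at -0.71, PMVK at -0.75 and FDPS at -0.75 log2 were called in this comparison and not against scramble siRNA. These 3 had higher TPM with SETD2 siRNA than with scramble siRNA in both libraries. At SC5D the direct difference was -0.09, with a 95% interval from -0.32 to 0.14 on the log2 scale, and at FADS1 it was -0.08, with an interval from -0.33 to 0.18. Without any 1 of the 4 libraries of this comparison, SETD2 siRNA replicate 2 or 3 or hnRNP L siRNA replicate 1 or 2, the members called lower numbered 5 to 6.

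Beyond the members, the other genes of each pathway were counted. Of 14 further genes of sterol and isoprenoid synthesis 12 were tested, and 2 were called lower after hnRNP L depletion, with a median log2 fold change of -0.33. Of all tested genes 5.01% were called lower, and their median was -0.08. Of the transferases that attach isoprenoids to protein, FNTB at -0.51 and PGGT1B at -0.57 log2 passed by adjusted p alone and were not called. FNTA had 0.01 log2 and did not pass. Of 30 further fatty acid genes 27 were tested, 6 were called lower and the median was -0.32. They were the desaturase FADS3 at -0.64, the elongases ELOVL1 at -0.77 and ELOVL7 at -0.60, HSD17B12 at -0.69 and HACD1 at -0.79, which act in the elongation cycle with them, and the acyl-CoA synthetase ACSL1 at -0.59 log2. After SETD2 depletion 0 of these 12 and 0 of these 27 were called in limma, and 1 and 9 had an unadjusted p under 0.05. Of all tested genes 0.104% were called and 13.1% met that unadjusted level. In the direct comparison of the depletions 3 of 12, with PGGT1B at -0.64 log2, and 1 of 27, HACD1 at -0.60 log2, were called lower. This call was made for 4.69% of all tested genes.

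Of 9 genes that control the pathway 8 were tested, and all 8 had both hnRNP L siRNA libraries below both scramble libraries, the order shown by 37.8% of tested genes. SREBF2, the SREBP gene tied most closely to sterol synthesis, had 60.5 and 52.6 TPM with scramble, 47.8 and 55.4 TPM with SETD2, and 19.1 and 21.2 TPM with hnRNP L siRNA, a log2 fold change of -1.46 ± 0.12 (SE). It was called lower, as were 2 others, INSIG1 at -0.94 among them, where 5.01% of tested genes were, while SREBF1 at -0.37 ± 0.13 (SE) was not. After SETD2 depletion 0 of the 8 were called in limma and 2 had an unadjusted p under 0.05, against 13.1% of tested genes. In the direct comparison 2 of the 8 were called lower with hnRNP L siRNA, against 4.69% of tested genes.

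**Figure D4:**
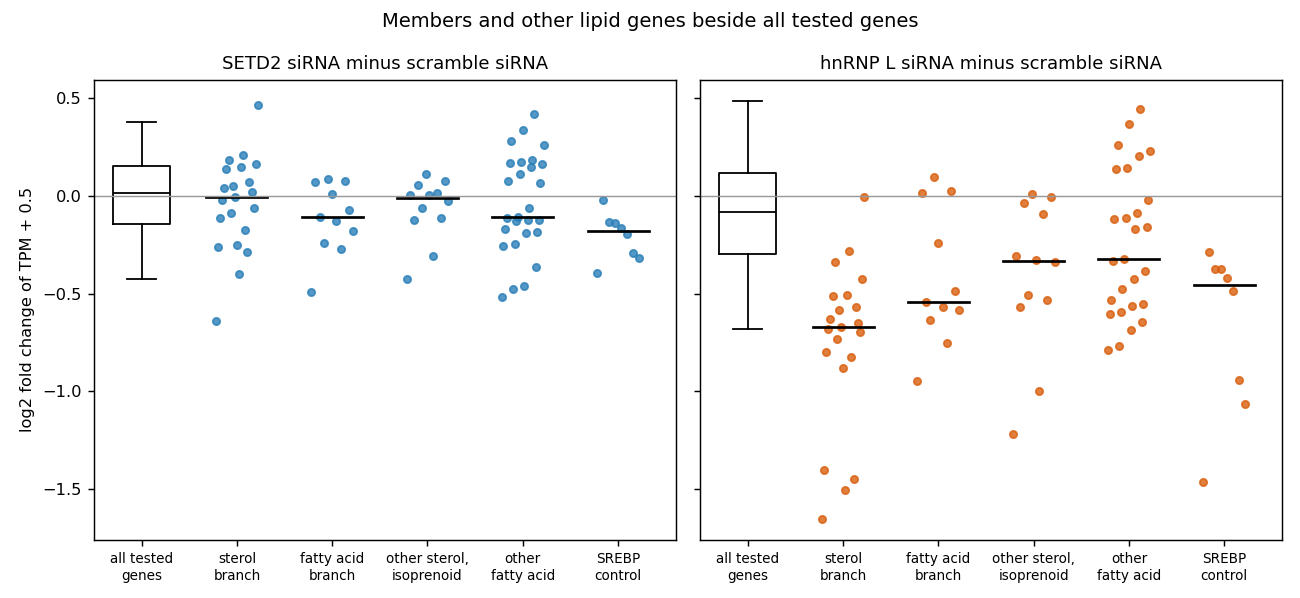
log2 fold change of TPM + 0.5 against scramble siRNA, left for SETD2 and right for hnRNP L siRNA, with 1 point per gene, a bar at each list's median and a box for all 16300 tested genes (quartiles, whiskers at the 5th and 95th percentile). On the right the median bars of the sterol and fatty acid branches stand at -0.67 and -0.54, and on the left all medians lie between -0.18 and 0.01.

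The promoters of the members were read to show what they share besides function. RefSeq windows of 300 bases (GRCh38.p14), 250 before and 50 from the start, were held for 28 members, 18 sterol and 10 fatty acid genes. None was held for ACAT2, FDFT1, SQLE and FASN. For 26 of them the start was within 10 bases of the MANE Select transcript start, and for LBR and FADS2 it was 783 and 11896 bases away. The letters CCAAT, the core of the NF-Y box, were searched on both strands, and so were the GC box GGGCGG and the sterol regulatory element TCACNCCAC. CCAAT was found in 15 of 18 sterol windows (83.3%) and in 4 of 10 fatty acid windows (40.0%), against 36.6% of the windows of 15108 genes. At least 2 matches stood in 11 sterol windows (61.1%) and in 3 fatty acid windows (30.0%), against 12.8% of all genes. No CCAAT match overlapped a match of another motif. The GC box was in 16 sterol and 9 fatty acid windows, against 61.9% of genes. TCACNCCAC had no match in these 28 windows and was in 1.2% of all genes' windows, which says only that these letters are not there.

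The 250 bases before the start are shown for 6 members, chosen so that windows with many matches, some and none stand beside each other. Letters in capitals are CCAAT or, on the other strand, ATTGG, and the lines run 5′ to 3′ on the gene's strand. They lie at chr4:165327419-165327668 (plus strand) for MSMO1, chr10:1049120-1049369 (minus) for IDI1, chrX:48521558-48521807 (plus) for EBP, chr1:154936720-154936969 (minus) for PMVK, chr10:100346983-100347232 (plus) for SCD and chr17:37406837-37407086 (minus) for ACACA.
MSMO1: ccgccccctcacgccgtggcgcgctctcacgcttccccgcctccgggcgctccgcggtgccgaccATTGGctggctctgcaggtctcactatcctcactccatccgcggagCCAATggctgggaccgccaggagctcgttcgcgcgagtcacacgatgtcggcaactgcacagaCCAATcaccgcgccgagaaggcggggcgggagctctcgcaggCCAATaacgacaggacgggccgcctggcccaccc
IDI1: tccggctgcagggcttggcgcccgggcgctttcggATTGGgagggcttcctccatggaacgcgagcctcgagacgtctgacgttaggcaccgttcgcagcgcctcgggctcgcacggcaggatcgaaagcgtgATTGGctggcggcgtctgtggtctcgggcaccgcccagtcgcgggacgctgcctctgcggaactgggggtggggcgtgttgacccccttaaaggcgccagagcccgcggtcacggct
EBP: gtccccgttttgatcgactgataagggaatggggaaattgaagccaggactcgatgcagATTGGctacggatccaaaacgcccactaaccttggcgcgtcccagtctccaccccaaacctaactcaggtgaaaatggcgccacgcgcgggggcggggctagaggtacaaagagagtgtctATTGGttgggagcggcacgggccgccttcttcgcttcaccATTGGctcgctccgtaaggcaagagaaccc
PMVK: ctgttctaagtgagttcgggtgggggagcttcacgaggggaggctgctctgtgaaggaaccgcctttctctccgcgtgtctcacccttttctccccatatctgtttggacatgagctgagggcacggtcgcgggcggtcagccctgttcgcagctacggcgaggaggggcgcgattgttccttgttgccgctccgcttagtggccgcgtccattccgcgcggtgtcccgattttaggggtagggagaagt
SCD: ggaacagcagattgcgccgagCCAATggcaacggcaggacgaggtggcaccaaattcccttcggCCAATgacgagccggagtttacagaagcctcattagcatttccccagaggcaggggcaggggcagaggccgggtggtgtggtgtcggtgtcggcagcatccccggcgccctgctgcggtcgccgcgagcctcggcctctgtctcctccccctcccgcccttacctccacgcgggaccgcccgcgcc
ACACA: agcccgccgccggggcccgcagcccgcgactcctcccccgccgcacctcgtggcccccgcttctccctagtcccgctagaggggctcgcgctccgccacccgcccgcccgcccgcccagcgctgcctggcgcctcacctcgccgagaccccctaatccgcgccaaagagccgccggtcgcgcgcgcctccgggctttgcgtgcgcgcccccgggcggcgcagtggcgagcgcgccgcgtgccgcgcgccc

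MSMO1 and IDI1, with a log2 fold change of -1.65 and -1.45 after hnRNP L depletion, held 4 and 2 matches, and EBP, at -0.43 and not called, held 3. SCD held 2 matches and was called, while PMVK and ACACA held none and were not. Of the sterol genes with a match 9 of 15 were called lower, and of those without, CYP51A1 and LBR of 3. In the fatty acid branch 2 of 4 with a match and 2 of 6 without were called. These counts include LBR, without a match, and FADS2, with 1. Their windows start 783 and 11896 bases from the MANE Select start, and both genes were called. No test was made of these counts.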

How the data were processed

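RNA-seq libraries of 293T cells, 2 for each of 3 siRNAs, were analysed, grouped by their labels. Paired reads had been aligned by the authors with STAR 2.6.1c (hg38, Ensembl gene models), and the deposited TPM per gene came from RSEM 1.3.0. Whether counting used strand is not stated in the sources used here, and 22 of 32 members overlap another GENCODE gene. Depth and counting error of a value are unknown, since TPM hold no counts and sum to 1000000 in every library. All 6 value columns were used, and 0 lacked a sample.

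Values were transformed to log2(TPM + 0.5). Genes with a mean of at least 0.5 TPM, 16300 in all, were fitted in limma 3.58.1 (R 4.3.3) with 1 mean per siRNA and a variance trend, and p was adjusted by Benjamini-Hochberg over all of them. A call needed an adjusted p below 0.05 together with a fold of more than 1.5. Python 3.11.15, pandas 2.3.3, NumPy 2.4.6 and Matplotlib 3.10.9 served for tables and plots. On simulated data of 16300 genes with hnRNP L against scramble changed, 26 of 50 genes changed 1.5-fold and 48 of 50 changed 2-fold were recovered, with 2 false calls. A change of 1.5-fold equals the cut-off, so its recovery is limited by the rule itself. The simulated spread followed the mean level alone, and no change was simulated for SETD2 siRNA.

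The members, the other gene lists and the tests were chosen with earlier results of these data known. Genes named are all members, of the other lists the genes called, the siRNA targets and cell markers. FNTA, FNTB, PGGT1B, SREBF1 and the genes of sterol uptake were named after their values were seen. Of the called genes outside the members, 3 are counted and not reported by name here. Promoters came from RefSeq. ChIP-seq was not analysed here.

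Alternatives changed the pseudocount (0.1 or 1), the filter (none, or a mean of 1 TPM), the genes (only those coding for protein or lncRNA), the scaling (by median ratio, by quantiles, or leaving out the 37 mitochondrially encoded genes) and the fit (without the third group, without the trend, with a replicate block). The fold cut-off was dropped or set to 2, each library was left out in turn, and branches were taken without supply and transport members. Scramble and hnRNP L siRNA share the numbers 1 and 2.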

Additional observations from a re-analysis of the deposited data

How the results depend on the processing

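No called member turned its direction under the alternatives run, while the medians after SETD2 depletion, close to 0, took either sign. After hnRNP L depletion the members called lower numbered 4 at a fold above 2 and 9 with no filter on low TPM, and 5 to 14 with 1 library left out, where a lone library is assumed to vary like the other groups. The sterol median was -0.58 with median-ratio scaling, -0.58 with quantile normalization and -0.72 without mitochondrially encoded genes, and -0.69 to -0.63 with 1 library left out. The fatty acid median ran from -0.58 to -0.40 and the difference between branches from -0.26 to -0.047 over those omissions. Against SETD2 siRNA, the members called lower numbered 5 at a fold above 2, 7 with no filter and 5 to 6 with 1 library left out. The sterol median there was -0.50 with median-ratio scaling, -0.48 with quantile normalization, -0.56 without mitochondrially encoded genes and -0.66 to -0.59 over the omissions, and the fatty acid median -0.21 with median-ratio scaling and -0.21 without the supply and transport members. After SETD2 depletion, 1 member was called lower among protein-coding and lncRNA genes. The sterol median was -0.064 with quantile normalization and -0.10 without mitochondrially encoded genes, and over the omissions it ran from -0.098 to 0.058, the fatty acid median from -0.23 to 0.0051 and their difference from -0.082 to 0.20. A higher fold cut-off, fewer libraries or other tested genes change the calls by construction. Median-ratio scaling and omission of mitochondrially encoded genes rescale each library by 1 factor, so that all genes shift nearly together by construction. After SETD2 depletion that omission took the median of all tested genes from 0.01 to -0.07. The cause of the other shifts was not tested.

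With the shared number as a replicate block, 15 members were called lower after hnRNP L depletion, with ACSS2 and SCD no longer called. That fit also left out the SETD2 siRNA libraries. ACSS2 and SCD lost their call as well when the third group was left out with no block. The scramble and hnRNP L siRNA libraries share only a number, and deviations of same-numbered libraries correlated at -0.1256 over genes. A block with the numbers crossed, chosen after seeing the data, called 17 members lower.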

Other observations

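Genes of sterol uptake, storage and efflux, 12 listed after the values of the members were seen, were counted in the same way. Of 11 tested, 2 were called lower after hnRNP L depletion, where 5.01% of all tested genes were, and the median log2 fold change was -0.42. LIPA, the lysosomal acid lipase that frees cholesterol from its esters, had 70.9 and 61.8 TPM with scramble, 49.8 and 53.6 TPM with SETD2, and 41.2 and 43.7 TPM with hnRNP L siRNA. Its 3 groups did not overlap, with a log2 fold change of -0.64 ± 0.11 (SE) after hnRNP L depletion. NR1H3, the oxysterol receptor LXR alpha, had 5.13 and 6.85 TPM with scramble, 7.55 and 7.03 TPM with SETD2, and 3.76 and 3.33 TPM with hnRNP L siRNA, a log2 fold change of -0.67 ± 0.16 (SE). It was lowest with hnRNP L and highest with SETD2 siRNA. Its partner NR1H2, LXR beta, had 12.1 and 12.7 TPM with scramble and 13.3 and 13.9 TPM with hnRNP L siRNA, 0.13 ± 0.11 (SE) log2 and not called. TMEM97, which limits the lysosomal cholesterol transporter NPC1, had 151 and 138 TPM with scramble and 92.4 and 101 TPM with hnRNP L siRNA, and its log2 fold change of -0.58 ± 0.10 (SE) was just short of the fold cut-off. After SETD2 depletion 0 of these 11 were called in limma and 2 had an unadjusted p under 0.05, against 13.1% of tested genes.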
